A study of Mus musculus with 4 samples.

Results

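Claudins are membrane proteins that assemble into the strands of tight junctions, where neighbouring cells of a sheet meet. Some of them seal the gap between cells, and others form pores that let ions pass. CLDN11 is best known from the myelin of the central nervous system and from Sertoli cells of the testis, CLDN5 from the lining of blood vessels, and CLDN3, CLDN4 and CLDN7 from epithelia. The question asked of these arrays was whether a fall of Cldn11 in KDM5B-deficient hearts was shared by other claudins. The 10 genes examined were Cldn1, Cldn2, Cldn3, Cldn4, Cldn5, Cldn7, Cldn10, Cldn11, Cldn12 and Cldn15, picked by their gene name among the 27376 gene names of the array, and they were read by 11 of its 41174 probes. The group was chosen from the measured KO against WT difference of Cldn11, so the values of Cldn11 in that contrast are given as a description without a test.

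Left ventricles were taken 7 days after infarction, made by tying off a coronary artery (the left anterior descending branch), from mice aged 8 to 10 weeks and labelled male. The 2 groups were wild type (WT, n = 2 arrays) and KDM5B knock-out (KO, n = 2 arrays), the latter on a C57BL/6 background and carrying a CRISPR/Cas9 deletion in the part of Kdm5b that encodes the JmjC domain, with a frameshift. Both groups were infarcted, and no uninfarcted heart was on these arrays, so the values describe the injured ventricle only. The titles number the arrays 2 and 3 in each group, giving WT 2, WT 3, KO 2 and KO 3. The labels do not state whether each array is 1 mouse, so the p-values measure only the spread between these arrays. Sex-linked signals, given below, differ between the 2 arrays of each group, so that spread is not technical alone and takes in this difference. Where a pair of values is given for a genotype, that of number 2 comes first.

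RNA was read on 1-colour Agilent arrays, and a level is the log2 signal of a probe relative to the 75th percentile of its array. The share of probes that stood well above background ran from 68.2% to 72.0%. The mean KO minus WT difference of the pair of Kdm5b probes was -0.996 and -1.19 on the log2 scale, with the KO arrays lowest for each probe, and Kdm5b stayed well above background in KO. Whether either probe lies in the deleted stretch was not determined. Xist was well above background on WT 2 and KO 2 only and Ddx3y on WT 3 and KO 3 only, so the number 2 arrays go against their label of male and each comparison is also given within a number, where 1 array stands for each genotype. All 15 cardiomyocyte and all 15 endothelial markers were well above background on all 4 arrays, as the label of heart tissue requires.

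The probes behind the claudins with signal are shown because each value below rests on 1 such oligonucleotide. Each line gives the first 30 of the 60 bases, 5′ to 3′ as in the array design, in lower case throughout because no part is set apart.

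Cldn11 (chr3:31062922-31062981, plus strand): atatgcaataaataatagtacgaagattat

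Cldn5 (chr16:18778046-18778105, plus strand): tcctactgagatcctgggggcactagatgc

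Cldn7 (chr11:69780780-69781089, plus strand): taaccccttgacgcccatgaacgttaagta

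Cldn3 (chr5:135463179-135463238, plus strand): tgtccaagccgaatggacaaagaaacctcg

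Cldn10 (chr14:119273459-119273518, plus strand): gaccaagtatcaaggcggagaaggagattt

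Cldn15 (chr5:137451465-137451524, plus strand): actacacacatgcacacattctcaacaaaa

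Cldn12 (chr5:5505502-5505561, minus strand): atgagaatctttcggcattatcatctatag

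Positions are those of the files on mm9, and the Cldn7 interval is longer than its probe. The exon or UTR that a probe lies in was not determined, since no annotation of mm9 was used. The Cldn11 probe is AT-rich, with 35.0% G and C, as is that of Cldn12 with 35.0%, while those of Cldn3 and Cldn5 had 58.3% and 55.0%. The longest exact run that the Cldn11 probe shared with a probe of any other gene name, on either strand, was 13 bases, and for all 11 claudin probes it was at most 15 bases.

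Cldn11 was far lower in KO than in WT. Its processed intensity was 278.3 on WT 2 and 507.5 on WT 3, against 40.9 on KO 2 and 34.0 on KO 3. The KO signals were the 2 lowest, and the signal was well above background on all 4 arrays, so the difference is measured and not a bound. In bulk tissue, fewer cells that carry a transcript and less of it per cell cannot be told apart. The mean difference on the log2 scale was -2.998, a 7.99-fold lower signal, and it amounted to 4.72-fold at number 2 and 13.5-fold at number 3. With normexp background correction, which adds an offset of 50 and so shrinks the differences of dim probes, it was -1.69. Among the 2670 tested probes that were well above background on all arrays and separated with KO below WT, Cldn11 had rank 3 by size of its fall.

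Of the 10 claudins, 7 were tested, that is, they stood well above background on the 2 arrays of WT, of KO or of each. By limma no tested probe of the array passed an adjusted p under 0.05 with a fold change over 2 (0% of 28304), and the lowest adjusted p over all of them was 0.9999. At an unadjusted p under 0.05 there were 410 probes, 1.45% of those tested, and 0 of the 6 tested claudins other than Cldn11 were among them. Their smallest unadjusted limma p was 0.238, for Cldn7. A difference over 2-fold with lower signal in KO was found for 1 of the 7 tested claudins, Cldn11 itself, against 2.35% of all tested probes, and with higher signal in KO for 0 of the 7, against 1% of all tested probes. The groups did not overlap, with KO lower, for 2 of the 7, Cldn11 and Cldn7, against 10.9% of all tested probes, and with KO higher for 0 of the 7, against 13.1%. The first of these 2 was chosen for that pattern, so nothing is read from the count.

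**Figure D1:**
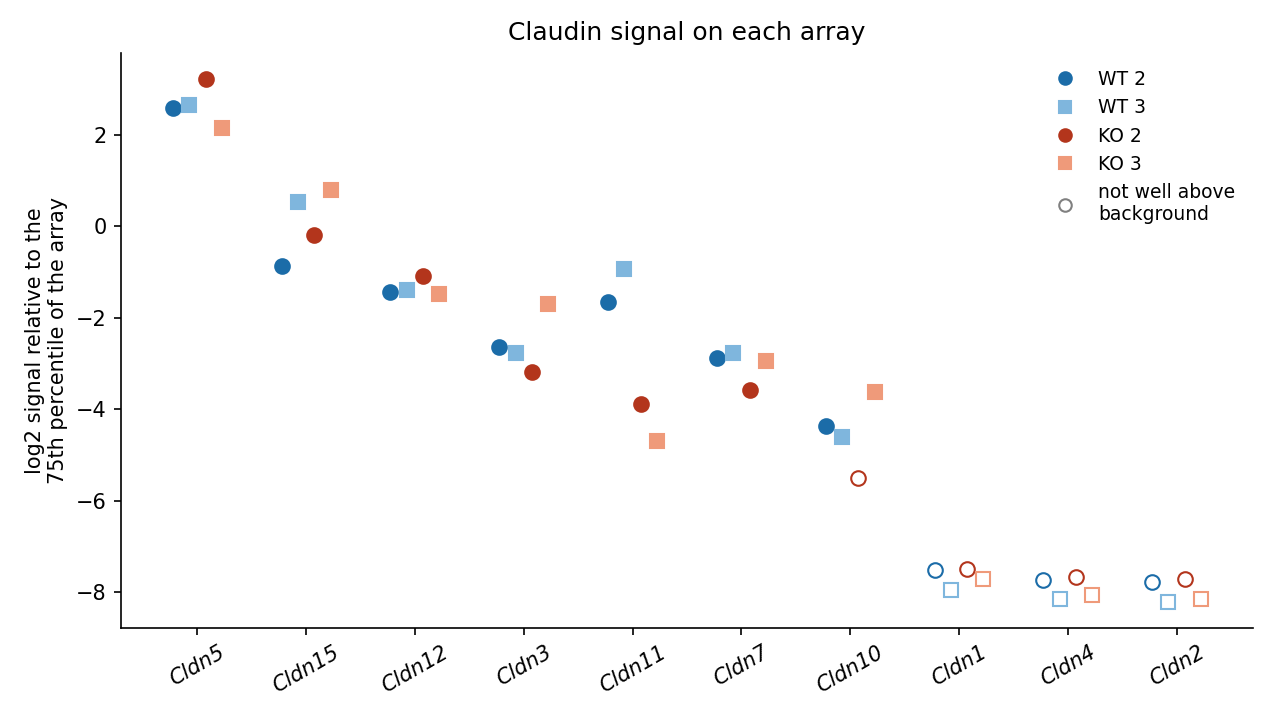
Level of the 10 claudins on each array, as log2 signal relative to the 75th percentile of that array (vertical axis). Each symbol is 1 array, and open symbols are not well above background. The Cldn11 symbols of KO 2 and KO 3, at -3.89 and -4.70, lie below those of WT 2 and WT 3, at -1.65 and -0.94, while for Cldn3, Cldn5, Cldn10, Cldn12 and Cldn15 the 2 groups overlap. Signals of different probes are not amounts of transcript and are not to be ranked against each other.

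The fall was thus not seen at this size in any other measured claudin. Without Cldn11, the 6 tested claudins had mean differences between -0.44 and 0.47, with 2 lower and 4 higher in KO. Their median was 0.10, close to the median of 0.02 over all tested probes. The balance of directions was not settled. Over the 7 tested claudins, Cldn11 included, 3 were lower in KO with a median of 0.07. Without KO 3 these became 5 of 7 and -0.47, without KO 2 they became 4 of 7 and -0.075, with quantile normalization 4 of 7 and -0.027, and with normexp 2 of 7 and 0.18. The 95% intervals of the limma differences of the 6 reached from -2.14, for Cldn10, to 2.34, for Cldn15. The bound of Cldn10 includes a KO 2 signal that was not well above background. Cldn11 was chosen by its -2.998, so that value is no yardstick for these intervals and nothing is read from the comparison.

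Among claudins that seal junctions, Cldn7, an epithelial claudin, came nearest to the direction of Cldn11. Its level was -2.89 and -2.77 in WT and -3.59 and -2.95 in KO. The groups did not overlap, although KO 3 lay close to WT 2. The difference of -0.44 had a standard error of 0.31 and a 95% interval from -1.33 to 0.45, and the limma adjusted p was 0.9999. It was -0.70 at number 2 and -0.18 at number 3. Without KO 2 it was -0.12 and without KO 3 -0.76, so its size depended on single KO arrays. With normexp it was -0.039, in a setting whose offset shrinks the differences of dim probes.

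Cldn3, also an epithelial claudin, did not follow. It read -2.64 and -2.77 in WT and -3.18 and -1.70 in KO, so KO 2 was the lowest array and KO 3 the highest, with both WT arrays between them. The difference was -0.54 at number 2 and 1.08 at number 3, and its mean of 0.27 had a 95% interval from -1.38 to 1.92. Cldn4, the gene next to Cldn3 on chromosome 5 and another epithelial claudin, was not well above background on any array.

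Cldn5, the claudin of endothelial cells, was well above background throughout, with levels of 2.58 and 2.65 in WT and 3.22 and 2.16 in KO. The KO arrays thus flanked the WT arrays. The difference was 0.64 at number 2 and -0.49 at number 3, and the mean of 0.07 had a 95% interval from -1.17 to 1.32. With quantile normalization the mean difference was -0.04, so it has no settled direction.

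Of the claudins that form ion pores, Cldn10 read -4.38 and -4.60 in WT and -5.51 and -3.62 in KO, and was not well above background on KO 2. As with Cldn3, both WT arrays lay between the KO arrays. The difference was 0.98 at number 3, and at number 2 the KO signal gives no measured size. The mean of -0.08, which includes that dim signal and was 0.37 with normexp, had a 95% interval from -2.14 to 1.99. Cldn15, another pore-forming claudin, read -0.87 and 0.53 in WT and -0.19 and 0.79 in KO. The KO minus WT difference was 0.68 within number 2 and 0.26 within number 3, but the difference between numbers was larger than that between genotypes, and the groups overlapped. Its mean difference was 0.47 with a 95% interval from -1.39 to 2.34. Cldn2, the third pore-forming claudin, was not well above background on any array.

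Cldn12, a widely expressed claudin, varied least among the 7 tested. Its levels were -1.43 and -1.38 in WT and -1.08 and -1.48 in KO, a range of 0.40 over the 4 arrays. The difference of 0.12 had a standard error of 0.25 and a 95% interval from -0.59 to 0.84. The range of the other tested claudins was 0.82 for Cldn7, 1.06 for Cldn5, 1.48 for Cldn3, 1.66 for Cldn15, 1.89 for Cldn10 and 3.76 for Cldn11.

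The remaining 3 claudins, the barrier protein Cldn1 with 2 probes, Cldn2 and Cldn4, gave unscaled log2 signals between 1.53 and 2.30. The negative control spots averaged between 1.94 and 2.31 on the same scale. For these 3 genes no difference between the genotypes could be measured.

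**Figure D2:**
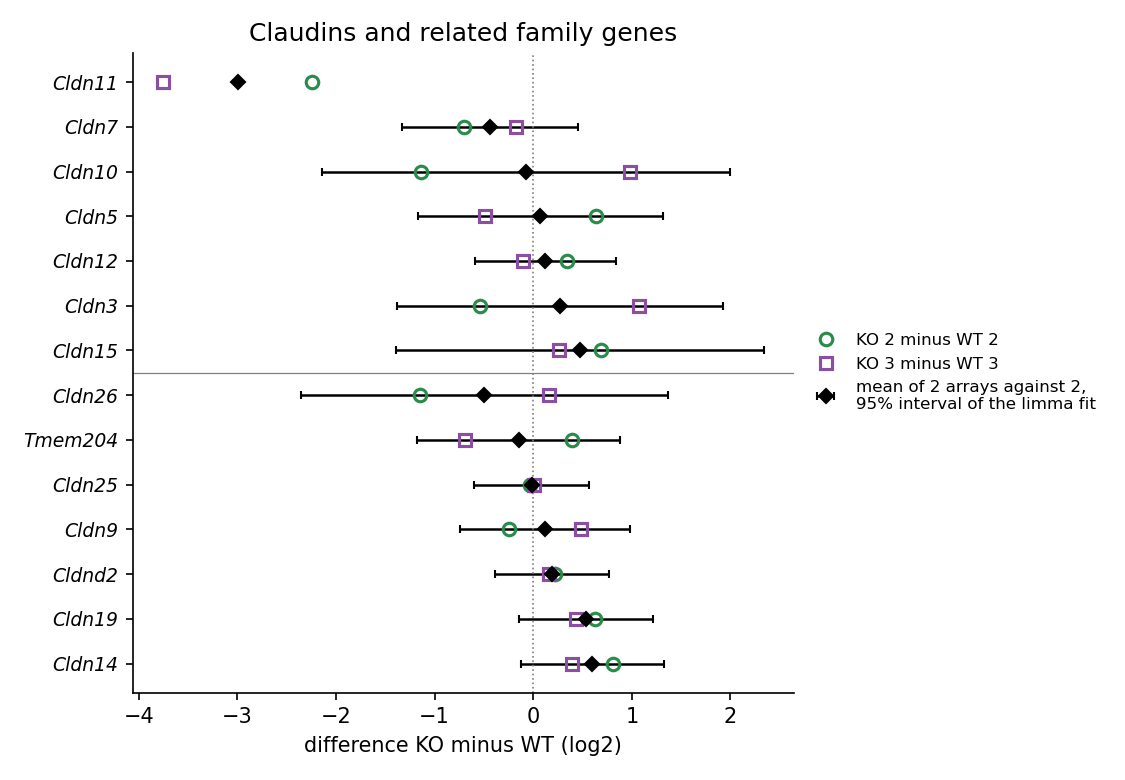
Difference KO minus WT on the log2 scale (horizontal axis) for the 7 tested claudins, above the line, and the 7 tested genes related to them, below it. Diamonds are the mean difference with the 95% interval of the limma fit, which is left out for Cldn11 because it was chosen by this contrast; circles and squares are the differences within number 2 and number 3. The number 2 circles of Cldn10, Cldn19 and Cldn26 rest on a signal that was not well above background on 1 array, and so are not measured sizes. Cldn11 stands at -2.998, and the means of the other 6 tested claudins lie between -0.44 and 0.47.

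Another 15 genes of the wider family were on the array, and 7 of them were tested. Of these, 3 were lower and 4 higher in KO, with a median of 0.12, where 47.7% of all tested probes were lower. KO lay entirely below WT for 0 of the 7, against 10.9% of all tested probes. KO lay entirely above WT for 3 of the 7, Cldn14, Cldn19 and Cldnd2, against 13.1% of all tested probes. Cldn14, known from the inner ear and kidney, read -3.48 and -3.49 in WT and -2.67 and -3.09 in KO. Its difference was 0.60 with a standard error of 0.25, an unadjusted p of 0.0818 and an adjusted p of 0.9999 by limma. Cldn19, a claudin of Schwann cells and the kidney, read -5.58 and -5.71 in WT and -4.95 and -5.27 in KO by its brighter probe. Its WT 2 signal did not pass the background test and it was tested only through KO, where it is higher, so its place among the 3 is no support for a direction. Cldnd2 differed by 0.19.

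The other 4 related genes overlapped between the groups. Cldn9 differed by 0.12 and Tmem204, an endothelial membrane protein, by -0.15. The probe named Cldn26 in the files, now Tmem114 in RefSeq, was not well above background on KO 2, and its mean difference of -0.49, which includes that signal, was 0.24 with normexp. The gene named Cldn25 in the files, now Cldnd1 in RefSeq, gave nearly the same level on all 4 arrays by its brighter probe, between 1.68 and 1.77, and a difference of -0.02. The 8 genes with no tested probe were Cldn6, Cldn8, Cldn13, Cldn16, Cldn17, Cldn18, Cldn22 and Cldn23.

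To see whether the rest of the junction moved, 34 genes of other tight junction proteins were examined, of which 30 were tested. By limma 0 of the 30 were called, and 1 had an unadjusted p under 0.05, against 1.45% of all tested probes. There were 13 lower and 17 higher in KO, with a median of 0.11, where 47.7% of all tested probes were lower. KO lay entirely below WT for 4 of the 30, against 10.9% of all tested probes, and entirely above it for 4, against 13.1%. Cgn, counted among the higher and the last 4, was tested only through KO, where it is higher, so its place there is no support. The gene of occludin, a membrane protein of the same strands, was not well above background on any array. The scaffold Tjp1, which holds claudins to the actin cytoskeleton, differed by -0.28.

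The 2 largest differences towards lower signal in KO among partners well above background on all arrays were those of the cell polarity genes Pard6b and Pard6g. Pard6b read -1.19 and -0.96 in WT and -2.04 and -1.15 in KO, a difference of -0.53 with a standard error of 0.39. Pard6g differed by -0.44 with a standard error of 0.29. The 2 largest towards higher signal were those of Cxadr, the coxsackie and adenovirus receptor, and Jam2, a junctional adhesion molecule of endothelium. Cxadr read -0.19 and -1.14 in WT and 0.41 and -0.15 in KO, a difference of 0.80 with a standard error of 0.45. Jam2 read 3.49 and 3.34 in WT and 3.93 and 3.76 in KO, and its difference of 0.43 had a standard error of 0.22. All 4 had a limma adjusted p of 0.9999.

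Cgn, which encodes the junction adaptor cingulin, was the partner with the unadjusted p under 0.05. It was not well above background on either WT array and entered the test through KO, where it read -4.61 and -5.23, so that p rests on WT signals at background and is no support for a difference. Set against the dimmest probe that passed the background test on each WT array, it was 1.70-fold higher in KO. This is no strict bound, since some brighter probes failed that test. The limma adjusted p of Cgn was 0.9999. Of the 30 partners, 0 were over 2-fold lower in KO, against 2.35% of all tested probes.

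**Figure D3:**
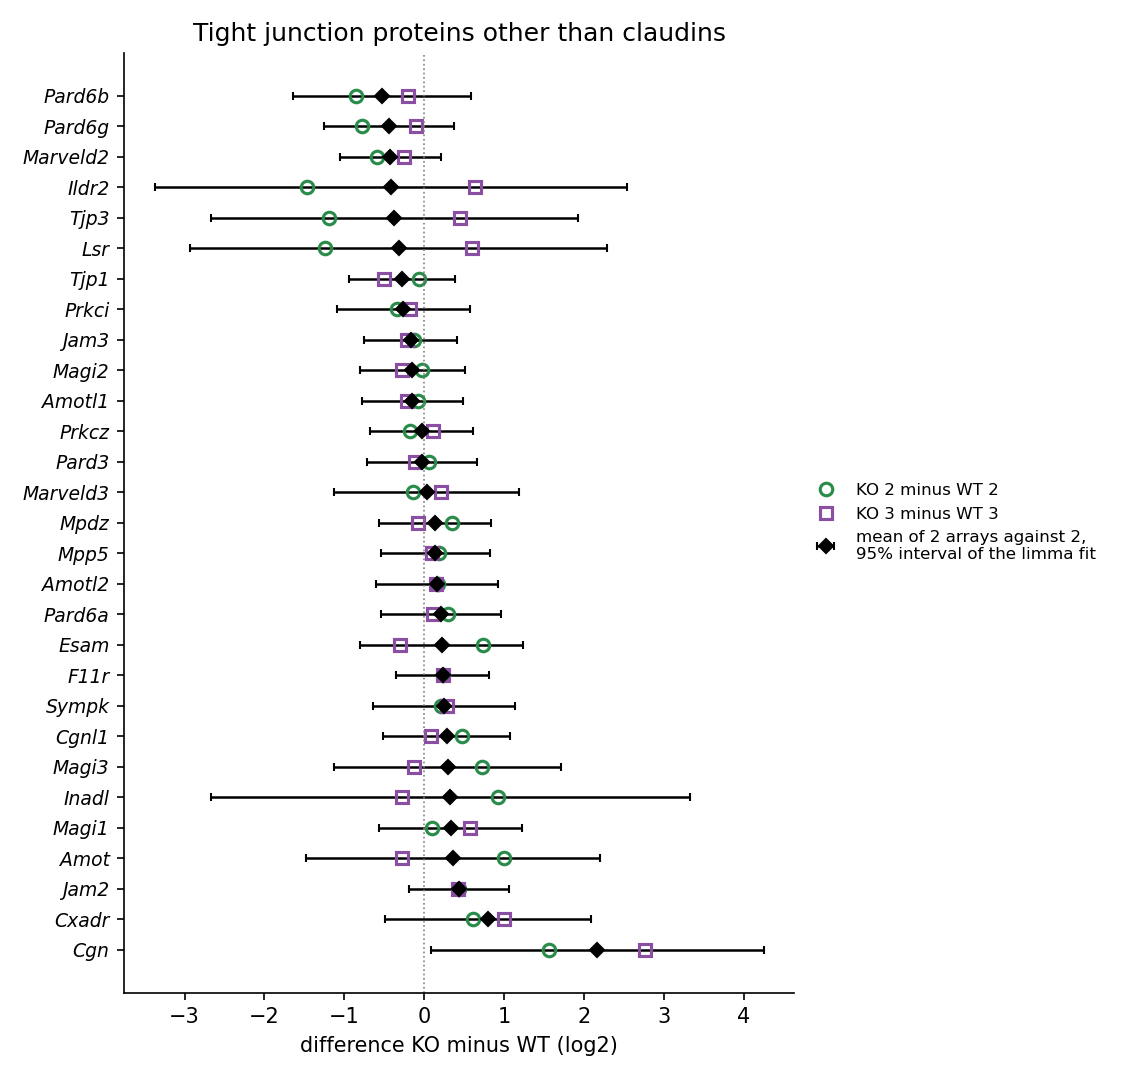
Difference KO minus WT on the log2 scale (horizontal axis) for the tested genes of tight junction proteins other than claudins, with 1 of the 30 not shown. Diamonds are the mean difference with the 95% interval of the limma fit, and circles and squares are the differences within number 2 and number 3. The means run from -0.53 for Pard6b to 2.16 for Cgn, whose WT signals were not well above background, so that its position is not a measured size.

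Because claudins differ between cell types, lists of cell type markers were read beside them. A summed level is the log2 of the summed signals of a list, in units of the 75th percentile of the array. In 0 of the 9 lists were the KO sums the 2 lowest, and the lowest difference of a list's mean sum was -0.69. A sum is carried by the brightest genes of its list and says little about the dimmer ones. Cldn11 is 1 probe chosen by its fall, so its difference is not set against these sums.

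The myelin lists were read beside Cldn11. The Schwann cell and myelin list, with 11 of 13 genes tested, had summed levels of 5.07 and 5.27 in WT and 4.91 and 5.26 in KO. That sum is carried mostly by Pmp22, which read 4.50 and 4.81 in WT and 4.45 and 4.68 in KO, so it says little about the dimmer markers. Of the 11 tested genes of the list, 8 were lower and 3 higher in KO, where 47.7% of all tested probes were lower. KO lay entirely below WT for 0 of the 11, against 10.9% of all tested probes. Of the oligodendrocyte list, 4 of 10 genes were tested, and Ermn, Mog, Olig1 and Opalin were not well above background on any array. Its sum was 2.07 and 2.35 in WT and 1.59 and 2.77 in KO. No tested gene of either list had KO entirely below WT, but with so few genes this is near the share over all tested probes and nothing is read from it. The part of such cells in the value of Cldn11 was not tested.

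The fibroblast list had all 14 genes lower in KO on average, where 47.7% of all tested probes were lower, and 4 of the 14 had KO entirely below WT, against 10.9% of all tested probes. Its sums were 10.5 and 10.4 in WT and 9.98 and 10.5 in KO. Its difference was -0.54 at number 2 and 0.07 at number 3. The sum is carried by its brightest genes, such as the collagens. Dpt, which encodes dermatopontin, differed by -1.08 at number 2 and -0.88 at number 3, and Pdgfra, a growth factor receptor of fibroblasts, by -0.90 and -0.66. Dcn, Lum and Tcf21 were also lower in KO at both numbers. All other markers of the list changed direction between numbers. Gsn and Pi16 were higher in KO at number 2, and Col1a1, Col1a2, Col3a1, Fn1, Pcolce, Postn and Thbs4 at number 3. The part of fibroblasts in the value of Cldn11 was not tested.

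Cldn3 and Cldn10 had their lowest and highest levels on the same arrays as the summed markers of the heart's outer lining. The mesothelial and epicardial list, with 14 of 14 genes tested, summed to 4.65 and 5.08 in WT and 2.95 and 5.61 in KO. The epithelial list, with 6 of 13 genes tested, summed to 3.90, 3.80, 2.24 and 4.08 in the same order, and Epcam and Ovol1 were not well above background on any array. As for Cldn3 and Cldn10, KO 2 was lowest and KO 3 highest in both lists. The lists are not independent, since both hold Krt8, Krt18 and Krt19. Krt18, the brightest of the epithelial list, read 3.22 and 2.81 in WT and 1.76 and 2.84 in KO. Grhl2 and Elf3, untested genes of the epithelial list, went the other way, with their highest levels, -2.62 and -5.10, on KO 2. The pericyte and smooth muscle sum, with all 11 genes tested, was also lowest on KO 2 and highest on KO 3. The pattern is thus not particular to the outer lining. The lung epithelial and oligodendrocyte sums had the same extremes, with 5 of 11 and 4 of 10 genes tested. Their swings rest largely on Aqp5, at -3.94 on KO 2 and 0.56 on KO 3, and Mbp, at -0.66 and 2.18. Nothing about those cells is read from them. In the mesothelial and epicardial list WT 2 lay below WT 3, the reverse of Cldn3 and Cldn10. Msln, the mesothelial marker mesothelin, read 2.99 and 3.85 in WT and 0.90 and 4.38 in KO. Not every gene of that list ran this way. Wt1 read -0.89 and -0.83 in WT and -0.48 and 0.33 in KO, with both KO arrays above both WT arrays. Krt18 was highest on WT 2. Cdh1, an epithelial cadherin, was well above background on the other 3 arrays and not on KO 2. The lung epithelial list had its surfactant genes Sftpa1, Sftpb, Sftpc and Sftpd not well above background on any array. The part of these cells in the values of Cldn3, Cldn7 and Cldn10 was not tested.

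Cldn5 moved with the endothelial list. That list, with 15 of 15 genes tested, summed to 6.76 and 6.80 in WT and 7.33 and 6.67 in KO, so KO 2 was highest and KO 3 lowest, as for Cldn5. Cdh5, the endothelial cadherin, read 2.75 and 2.80 in WT and 3.43 and 2.78 in KO. The cardiomyocyte list had its highest sum, 12.1, and its lowest, 9.99, on the same 2 KO arrays. The part of these cells in the value of Cldn5 was not tested.

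**Figure D4:**
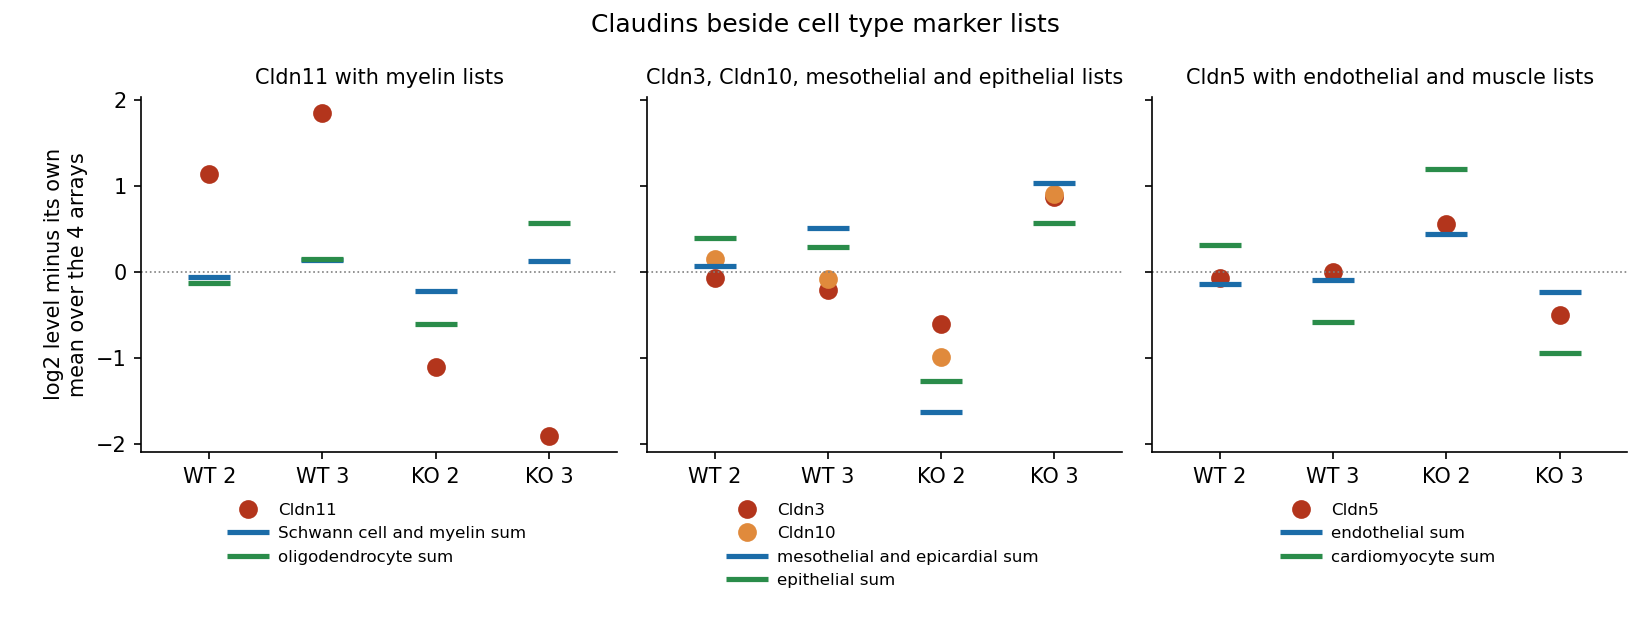
Claudin levels (dots) and summed levels of cell type marker lists (bars) on the 4 arrays, each as the log2 level minus its own mean over the arrays (vertical axis). In the middle and right panels dots and bars are lowest and highest on the same KO arrays, whereas in the left panel the Cldn11 dots of KO 2 and KO 3 lie below those of both WT arrays and the bars of the myelin lists do not. Both lists of the middle panel hold Krt8, Krt18 and Krt19.

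The genes whose 4 levels ran most like those of Cldn11 were sought among the other 18456 tested gene names, by the root mean square distance of levels centred on their own mean. The 5 nearest were Pcsk1, a prohormone convertase, Pou1f1, a pituitary transcription factor, C030005H24Rik and a pair of transcripts with no gene symbol in the files. Each was not well above background on at least 1 KO array, so their distances and their order are not measured. Pcsk1 read -4.88 and -3.77 in WT and -7.16 and -8.00 in KO, where it was not well above background. Set against the dimmest probe that passed the background test on each KO array, it was 2.46-fold lower in KO, which is no strict bound. Pou1f1 was 3.21-fold lower by the same reckoning. The nearest gene that was well above background on all 4 arrays, singled out after its values were seen, was Sfrp4, a secreted Wnt antagonist, at a distance of 0.62. It read -0.14 and -0.97 in WT and -2.71 and -3.25 in KO. Likeness over 4 arrays is a description, and these genes share the contrast by which Cldn11 was chosen.

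On chromosome 3 Cldn11 lies between Skil and Slc7a14 among the protein-coding genes of RefSeq. Skil, a repressor of TGF-beta signalling, differed by -0.28 with a 95% interval from -1.39 to 0.83, and Slc7a14 was well above background on only 1 array of each group. All 10 claudins matched a RefSeq promoter on GRCm38.p6, taken as 250 bases before to 50 bases after a start, with 14 promoters in all. The Cldn11 promoter held 24 CpG and a match to GGGCGG on either strand, which 35.7% of all 32851 promoters hold. Each other claudin except Cldn2 also had a promoter with such a match, so it is not particular to Cldn11. The promoters of Cldn2 and Cldn15 held 5 and 7 CpG, and the median over all promoters was 7. Cldn12, with a difference of 0.12 between genotypes, had promoters with 10, 23 and 26 CpG, and Cldn10 had promoters with 4 and 27.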

How the data were processed

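Arrays were scanned by the authors, who deposited per-spot intensity from Agilent Feature Extraction 10.7 (background subtracted with spatial detrending, then detrended multiplicatively) and flags for spots well above background, saturated or outlying. They also deposited log2 values made in GeneSpring, whose columns had medians of 6.78 and lay within 0.01 of the quantile-normalized log2 scanner intensity for at least 99.9% of rows.

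Group and number came from the sample titles. Outlier spots were left out, spots of a probe were averaged on the log2 scale, and the 75th percentile of each array was subtracted. No non-control spot was saturated. A probe was tested when it passed the background flag on the 2 arrays of WT, of KO or of each (28304 probes). KO and WT were compared with limma 3.58.1 in R 4.3.3 (lmFit, eBayes, Benjamini-Hochberg over all tested probes, called at adjusted p under 0.05 and fold over 2). An exact permutation test of 2 against 2 arrays cannot give a two-sided p under 0.333. A gene with several probes took its tested probe with the highest mean.

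The claudins and all gene lists were chosen with earlier results of these data known. Named beside the 10 claudins were Kdm5b, related genes with signal, the 2 largest rises and falls of tight junction partners well above background on all arrays, and the 5 genes most like Cldn11; the cell type lists were endothelial, mesothelial and epicardial, epithelial, lung epithelial, Schwann cell and myelin, oligodendrocyte, cardiomyocyte, fibroblast, and pericyte and smooth muscle. Alternatives were normexp (offset 50), quantile normalization, a median shift, other filters on dim probes, the authors' values, a replicate block, each array left out, the methods' t-test, trend and robust estimation, array weights and the mean of all probes. All arrays lay on 1 slide with the WT arrays at the first positions, so position and genotype cannot be told apart, and no slide block could be fitted. The number of arrays limits the precision. The code was tested on simulated data. Values of a few listed genes are not reported here.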

Additional observations from a re-analysis of the deposited data

How the results depend on the processing

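The number of probes called was 0 in all settings, including the methods' t-test after adjustment, which gave 88 at the same cutoffs unadjusted. With 2 arrays a group these zeros say nothing about stability. Cldn11 was -1.69 with normexp background correction, which put the median of all tested probes at 0.13 against 0.02. That setting adds an offset of 50, more than the Cldn11 intensities of 40.9 on KO 2 and 34.0 on KO 3. An offset added to both groups shrinks a log2 difference by construction, most for dim probes. How much of the smaller difference comes from the offset was not tested. Leaving out each array in turn gave -3.40 to -2.59 for Cldn11, and its direction there is fixed by the separation of its groups. The number of claudins lower in KO, 3 of 7, lay between 3 and 5 with 1 array left out, and their median between -0.47 and 0.11. The 5 and the -0.47 came without KO 3. The number and median were 2 and 0.18 with normexp, and 4 and -0.027 both with quantile normalization and with the values deposited by the authors.

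Normexp, quantile normalization, the median shift and the authors' values change the differences with all 4 arrays kept, and 3 of these 28 values of the tested claudins reversed. Cldn10 was 0.37 with normexp, and Cldn5 was -0.042 after quantile normalization and -0.042 from the authors' log2 values. With 1 array left out, 7 of 28 values reversed, in Cldn3 (-0.47 to 1.01), Cldn5 (-0.46 to 0.60), Cldn10 (-1.02 to 0.87), Cldn12 (-0.075 to 0.32) and Cldn15 (-0.23 to 1.17). Cldn7 kept its sign, at -0.76 to -0.12, and was -0.039 with normexp. The array left alone in its group is then taken to vary as the other group does. No label says what a number marks, though Xist and Ddx3y also split the arrays by number. Deviations from the group means correlated at 0.57 between same-numbered arrays. With the number as a replicate block the differences were the same by construction (Cldn11 -2.998) and 0 probes were called.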

Other observations

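The pericyte and smooth muscle list summed to 7.13 and 7.73 in WT and 6.86 and 8.46 in KO. All 11 of its genes were tested, with 5 lower and 6 higher in KO, where 47.7% of all tested probes were lower.

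Among claudins not well above background on both arrays of a group, Cldn13 read -5.45 on KO 2 and between -8.23 and -7.25 on the other 3 arrays, and Cldn22 read -5.53 on WT 3 and between -7.49 and -7.19 on the other 3. Neither signal was well above background.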
